A study of Homo sapiens with 4 samples.

Results

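The last 5.02 Mb of the long arm of human chromosome 3, in band 3q29, held 6107 summits in 2282 regions of an ATAC-seq peak list with 371521 summits in 197823 regions. A summit was counted in this terminal 3q29 stretch when it lay on chromosome 3 from 193 Mb to the chromosome end, in hg19 coordinates. Each line of the list is a summit, the point of highest signal, and a distinct pair of start and end is a region. The stretch was chosen by its number of listed summits in earlier counts of the same list, so its density and all other values of the list are given as descriptions, with no test. The first 5 Mb of the short arm, called the 3p end below, is the opposite end of the same chromosome and held 76 summits in 54 regions.

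ATAC-seq uses the Tn5 transposase to cut and tag accessible DNA. The cells were T47D-MTVL, made from the luminal breast cancer line T47D, with 1 integrated copy of a luciferase gene under the MMTV promoter. There were 2 samples with an shRNA that targets multiple variants of linker histone H1 (multiH1 knock-down) and 2 samples with a random shRNA (control), and the study asked how loss of H1 variants affects DNA accessibility. The 1 deposited list holds no values of single samples. It is named for the multiH1 shRNA against RDsh, the random shRNA, but its track line calls the first by another name that the labels do not use, which is taken here to mean the same shRNA. No spread between replicates and no difference between knock-down and control could therefore be measured at any region. The intervals given below are 95% intervals that cover counting error only, since summits beside each other depend on the same fragments, and PCR copies were not told apart by molecular identifiers.

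Histone H1 sits on the outside of the nucleosome, where it holds the linker DNA and helps neighbouring nucleosomes to pack. Band 3q29 is the terminal band of the long arm and is known for a recurrent microdeletion linked to developmental delay and psychiatric disease. Genes in it include HES1, a transcriptional repressor downstream of Notch, OPA1, a GTPase of inner mitochondrial membrane fusion, TFRC, the transferrin receptor, MUC4, a membrane mucin, TNK2 and PAK2, protein kinases, RNF168, a ubiquitin ligase of the DNA damage response, and DLG1, a scaffold protein of cell junctions. The 3p end carries CHL1, CNTN6 and CNTN4, neural cell adhesion molecules of the immunoglobulin superfamily, CRBN, a substrate receptor of a ubiquitin ligase, and ITPR1, a calcium channel of the endoplasmic reticulum.

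Names and order of genes were taken from a RefSeq table of GRCh38. Since the list is in hg19, no listed region was assigned to a gene. All 43 genes of the 3q29 list and all 13 genes of the 3p end list were found in it. From ATP13A5 to LMLN, the first and last genes of the 3q29 list, the table holds 163 genes, of which 51 are protein-coding, 61 are lncRNAs and 46 are pseudogenes. From CHL1 to EDEM1, the first and last genes of the 3p end list, it holds 54 genes, of which 13 are protein-coding, 23 are lncRNAs and 17 are pseudogenes. These stretches between named genes do not have the exact bounds of the 2 chromosome ends. RefSeq promoter windows of GRCh38, from 250 bases before to 50 bases after a gene's start, were present for 41 genes of the 3q29 list and 12 of the 3p end list. Their median GC content was 65.0% for the 3q29 genes and 60.2% for the 3p end genes, against 58.3% over 27305 genes of the table. The median ratio of observed to expected CpG in them was 0.85 for the 3q29 genes, 0.69 for the 3p end genes and 0.56 over all genes. A ratio of 0.6 or more was found for 28 of the 41 genes of the 3q29 list (68.3%) and for 8 of the 12 of the 3p end list (66.7%), against 13034 of 27305 genes of the table (47.7%). By this count the 2 lists were nearly equal. Both lists were chosen by name and hold 43 of the 163 and 13 of the 54 genes counted above. Their promoters therefore do not stand for all genes of the 2 ends. Whether this choice accounts for their distance from all genes of the table was not tested.

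The 3q29 stretch had 1216 summits per Mb, against 15.2 per Mb in the 3p end and 100.5 per Mb in the rest of chromosome 3 without the centromere gap. The ratio was 80.0 to the 3p end (exact interval 63.8 to 102) and 12.1 to the rest (11.8 to 12.5). With each region counted once, the stretch had 454 regions per Mb, the 3p end 10.8 and the rest 61.1. The listed regions covered 24.3% of the sequence of the 3q29 stretch, 0.297% of the 3p end and 1.94% of the rest. The stretch made up 2.58% of the length of chromosome 3 without the centromere gap and held 24.7% of the chromosome's summits (95% Wilson interval 24.1 to 25.2%), whereas the 3p end held 0.307% of them. Its share of all listed summits was 1.64%.

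The 2 ends differed in density throughout the terminal 5 Mb. In each of the 10 steps of 0.5 Mb within the terminal 5 Mb, the 3q end had more summits than the 3p end. The 3q steps ran from 162 summits in the last 0.5 Mb to 1060 at 3 to 3.5 Mb from the end, and the 3p steps ran from 2 to 27. Summed from 5 to 10 Mb from the tip, the ends no longer stood apart. The 3q side had 356 summits there and the 3p side 368, of which 196 lay from 9.5 to 10 Mb. The 3q side still had more in 7 of the 10 steps, those from 5 to 8.5 Mb.

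**Figure D1:**
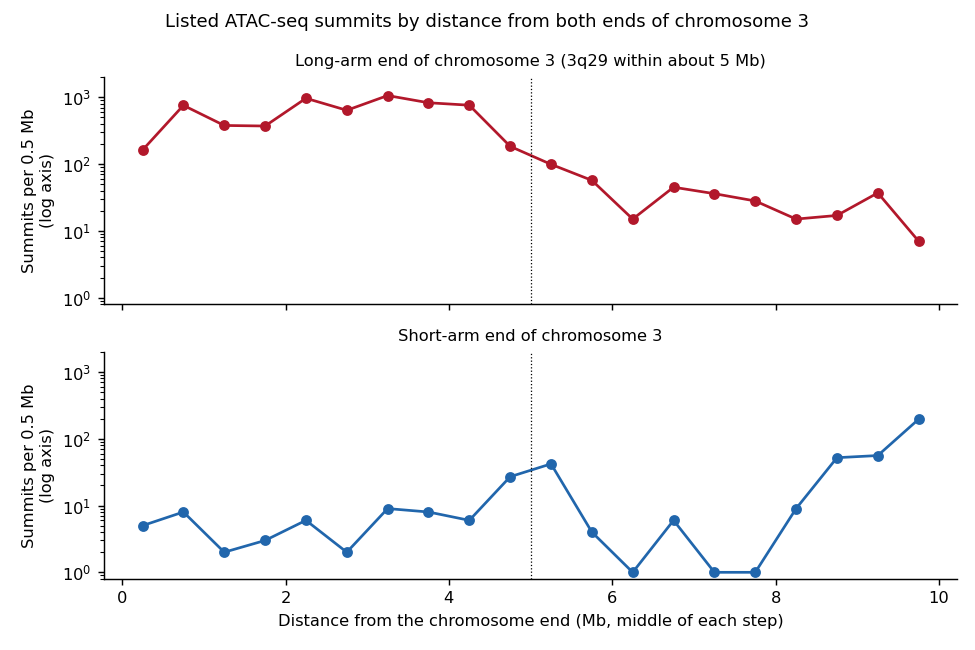
Number of listed summits per 0.5 Mb (log axis) against the distance from the chromosome end in Mb, for the long-arm end (top) and the short-arm end (bottom) of chromosome 3. The dotted line marks 5 Mb, and the 3q end lies above the 3p end in all 10 steps to its left.

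The inner edge of the dense stretch lay inside the bound set for it. The first 400 kb of the stretch held 71 summits, or 177.5 per Mb, and the next 600 kb held 832, or 1387 per Mb. The 5 Mb before the bound, from 188 to 193 Mb, held 351 summits, of which 150 lay in the last Mb. The first region inside, from 193009985 to 193010210, had 1 summit of 13 reads, and the last region outside, from 192995919 to 192996121, had 1 summit of 12 reads. The summit nearest to the bound was thus low on each side. Those after them had 10 and 13 reads inside, and 14 and 25 reads outside. At the outer edge, the last listed region ended at 197947554, 74.9 kb from the chromosome end. The first listed region of the 3p end began only at 238494.

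Within the stretch the summits were most numerous from 194 to 196 Mb. By Mb, there were 903 summits from 193 to 194 Mb, 1933 from 194 to 195 Mb, 1581 from 195 to 196 Mb, 772 from 196 to 197 Mb and 918 from 197 to 198 Mb. The window from 194 to 195 Mb had the most summits of the windows of 1 Mb on chromosome 3, and that from 195 to 196 Mb had rank 3. The other 3 windows of the stretch had ranks 5, 6 and 9. Of 51 windows of 100 kb, the last of which is cut short by the chromosome end, 24 had 100 summits or more and 12 had 200 or more. The median window had 98 summits. In the 3p end, 26 of 50 windows had none, and the fullest had 8. Elsewhere on chromosome 3, 33 of 1930 windows had 100 summits or more, and the stretch contributed 23 of the 50 densest windows of the chromosome.

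The 10 densest windows of the stretch held 2597 summits, or 42.5% of them (41.3 to 43.8%). Windows from 194000001 to 194100000 and from 194700001 to 194800000 led with 291 summits each. The window after the second of these, from 194800001 to 194900000, had 267, and the one after that 221. Next to one another lay the windows from 195400001 to 195500000 with 270 summits, from 195500001 to 195600000 with 285 and from 195600001 to 195700000 with 251. The others were the windows from 197200001 to 197300000 with 258, from 196700001 to 196800000 with 243 and from 195900001 to 196000000 with 220. Dense and nearly empty windows adjoined. The window from 196700001 to 196800000 was followed by 2 windows with 7 and 2 summits, and that from 194900001 to 195000000 by one with 11.

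Between listed regions, the 2 longest empty stretches lay in or beside the windows with 7 and 2 summits. They ran from 196892966 to 196975062 (82.1 kb) and from 196780936 to 196850989 (70.1 kb). The next was near the inner edge, from 193316772 to 193386251 (69.5 kb), followed by those from 196977828 to 197024406 (46.6 kb) and from 197901350 to 197946688 (45.3 kb). In the 3p end the longest was from 3221577 to 3839432 and spanned 618 kb. Between neighbouring regions the median distance was 542 bp in the 3q29 stretch, 16955 bp in the 3p end and 1169 bp in the rest of the chromosome. The distance was 1 kb or less for 68.2% of neighbouring regions in the stretch, for 24.5% in the 3p end and for 47.2% in the rest.

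Regions of the 3q29 stretch were wider and held more summits than those of the 3p end or of the rest of the chromosome taken whole. Their median width was 284.5 bp, against 163.5 bp in the 3p end and 194 bp in the rest. The mean number of summits in a region was 2.68 in the stretch, 1.41 in the 3p end and 1.65 in the rest. Regions with 1 summit made up 56.9% in the stretch (54.8 to 58.9%), 81.5% in the 3p end (69.2 to 89.6%) and 75.6% in the rest (74.8 to 76.4%). Regions with 5 summits or more were 13.5% of regions in the stretch (12.2 to 14.96%) and held 49.98% of its summits. In the rest of the chromosome they were 5.14% (4.75 to 5.56%) and held 24.8%. Within a region, the median distance from a summit to the next was 160 bp in the stretch, 182.5 bp in the 3p end and 157 bp in the rest. The wider regions thus held more summits at a like spacing.

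Wide regions were frequent in the stretch. It held 87 regions of 2 kb or more, which was 48.6% of the 179 on chromosome 3 (41.4 to 55.9%), whereas the 3p end had 0 of 54 regions of that width (interval up to 6.64%). Of regions of any width on chromosome 3, the stretch held 16.7%. Regions of 2 kb or more made up 3.81% of regions in the stretch (3.10 to 4.68%), 0.814% in the rest and 1.51% in the whole list. Of the 4 regions of 10 kb or more on chromosome 3, 3 lay here, and the whole list had 86. The widest on the chromosome, from 195593307 to 195611125, was 17819 bp wide and had 91 summits of 14 to 75 reads, with a median of 40. The region from 195504798 to 195516834 was 12037 bp wide and had 43 summits of 16 to 220 reads, with a median of 90, so that it was the taller of the 2. The region from 196747731 to 196758281 was 10551 bp wide, with 60 summits and a highest of 68 reads. It lay in the window before those with 7 and 2 summits. The region from 195493119 to 195501420 was 8302 bp wide with 41 summits, and that from 195918931 to 195926541 was 7611 bp wide with 43. These 5 regions were the widest and also those with the most summits, and held 4.55% of the summits of the stretch.

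Summits of the 3q29 stretch were also higher. The number of reads over a summit, its pileup, was obtained from the authors' fold enrichment. The fold is the pileup plus 1 read over the background plus 1 read, and the background was 2.01 reads for the whole genome. With a single background the fold follows the pileup alone and is not set against control signal at the same place. Pileup was not corrected here for DNA copy number or for reads from repeated sequence, and neither was tested. The list starts at 10 reads. The median summit had 18 reads in the stretch (25th to 75th percentile 14 to 25), 15.5 in the 3p end (12 to 23) and 15 in the rest of chromosome 3 (12 to 19). In fold enrichment these medians were 6.32, 5.49 and 5.32. Summits of 20 reads or more made up 44.1% in the stretch (42.8 to 45.3%), 30.3% in the 3p end (21.1 to 41.3%), 23.1% in the rest (22.5 to 23.7%) and 26.5% in the whole list. Summits of 50 reads or more made up 3.44% in the stretch (3.01 to 3.93%), against 0.893% in the rest (0.768 to 1.04%) and 1.44% in the whole list. The 3p end had 0 of 76 summits at that height, which allows up to 4.81%. The stretch held 210 of the 376 such summits of chromosome 3, or 55.9% (50.8 to 60.8%), against 24.7% of all its summits. These 210 summits lay in only 72 regions. Regions that reach 50 reads numbered 102 in the rest and 0 in the 3p end. They made up 3.16% of regions in the stretch (2.51 to 3.95%) and 0.903% in the rest (0.744 to 1.09%).

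**Figure D2:**
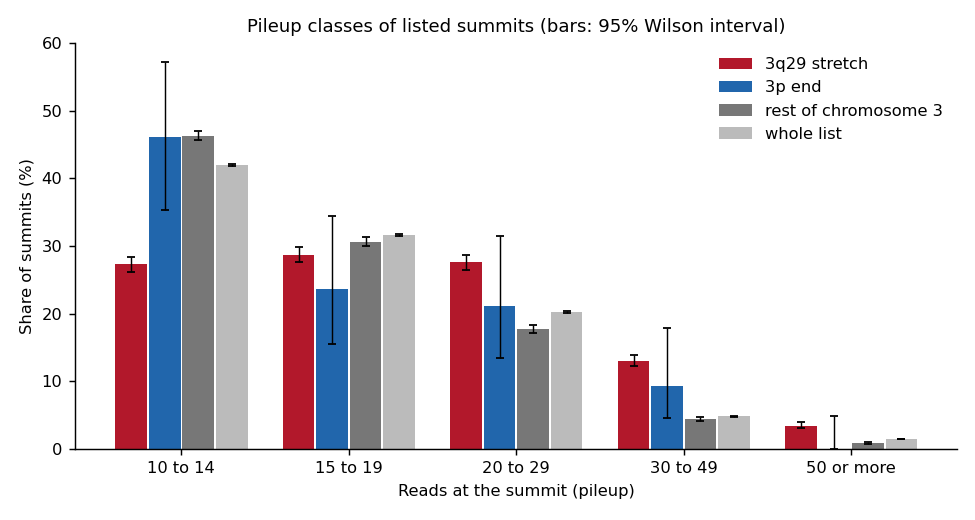
Share of summits in % by pileup class (reads at the summit) for the 3q29 stretch, the 3p end, the rest of chromosome 3 and the whole list, with 95% Wilson intervals. The stretch has the smallest share at 10 to 14 reads (27.2%) and larger shares than the rest of the chromosome in each class from 20 reads up.

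Height and region size went together, and the stretch stood higher than the rest of chromosome 3 outside both ends at each region size. Of summits alone in their region, 12.9% had 20 reads or more in the stretch (11.2 to 14.8%) and 7.67% in the rest (7.12 to 8.25%). In regions with 2 to 4 summits these shares were 31.9% in the stretch and 24.99% in the rest, and in regions with 5 to 9 summits 52.8% and 43.2%. In regions with 10 summits or more they were 74.2% in the stretch (72.0 to 76.2%) and 59.8% in the rest (57.4 to 62.1%). The 3p end had few summits in each class and did not follow this order. Of summits alone in their region 9.09% had 20 reads or more there (4 of 44 summits, 3.59 to 21.2%), in regions with 2 to 4 summits 70.0% (20 summits, 48.1 to 85.5%), above the stretch, and in regions with 5 to 9 summits 41.7% (12 summits, 19.3 to 68.0%). At 50 reads or more, summits alone in their region did not stand apart, with 0.077% in the stretch and 0.129% in the rest and overlapping intervals.

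Denser windows of 100 kb had higher summits. In the 12 windows of the stretch with 200 summits or more, 53.3% of summits had 20 reads or more (51.5 to 55.0%), in the 12 windows with 100 to under 200 summits 36.2% (34.0 to 38.4%) and in the 27 windows with fewer 33.6% (31.05 to 36.2%). Across the 46 windows with 10 summits or more, the number of summits and their median reads had a Pearson r of 0.66 and a Spearman rho of 0.66. These windows are neighbours read from 1 list and are not independent. Regions of the stretch with more summits also had higher ones, so the coefficient is a description. Pooled by density, windows elsewhere on chromosome 3 had lower summits, but single windows overlapped. At 200 summits or more, window medians ran from 16 to 29 reads in the stretch and from 16 to 21 reads elsewhere. The median of 21 was reached by a window of 321 summits in the Mb from 184 to 185 Mb and by one of 215 summits in the Mb before. With 200 summits or more in a window, the share at 20 reads or more was 53.3% in the stretch and 40.7% in the 9 such windows elsewhere (38.7 to 42.8%). With 100 to under 200 it was 36.2% in the stretch and 24.1% in 24 windows elsewhere (22.7 to 25.6%), and with 50 to under 100 it was 34.5% in 13 windows of the stretch and 19.05% in 53 elsewhere.

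**Figure D3:**
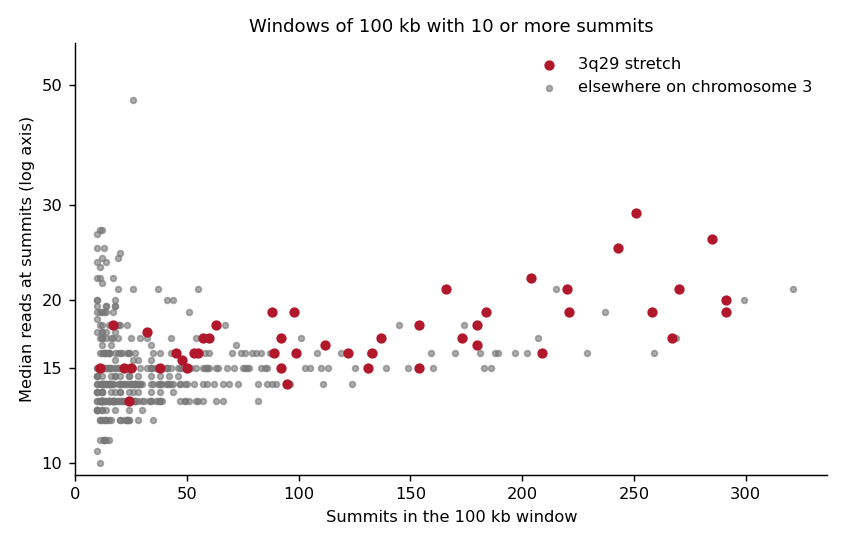
Median reads at summits (log axis) against the number of summits in windows of 100 kb with 10 summits or more, for the 3q29 stretch (46 windows) and elsewhere on chromosome 3 (398 windows). Medians rise with the number of summits in the stretch, where the highest is 29 reads in a window of 251 summits.

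Height was not even along the stretch and peaked from 195 to 196 Mb. The share of summits of 20 reads or more was 27.5% from 193 to 194 Mb (24.7 to 30.5%), 40.6% from 194 to 195 Mb (38.4 to 42.8%), 57.4% from 195 to 196 Mb (55.0 to 59.8%), 48.3% from 196 to 197 Mb (44.8 to 51.8%) and 41.2% from 197 to 198 Mb (38.0 to 44.4%). The Mb with the most summits, from 194 to 195 Mb, was thus not the one with the highest. Of the 210 summits of 50 reads or more, 116 lay from 195 to 196 Mb, and 91 of them (43.3% of 210) in the 3 windows from 195.4 to 195.7 Mb. Of all 6107 summits of the stretch, the same Mb held 1581 and the same 3 windows 806. The 3 windows were not set beforehand. The window from 195500001 to 195600000 alone had 56, in 7 regions. Without the Mb from 195 to 196, the share at 20 reads or more was 39.4% and that at 50 reads or more 2.08%, both still above the rest of chromosome 3.

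The 10 summits with the highest −log10 q lay in 4 regions. The 3 highest of all were in the region from 197899706 to 197901349, 121 kb from the chromosome end, with 786, 769 and 761 reads and a highest fold of 262. This region had no other summit. The next region toward the tip was the last listed one, 45.3 kb away, with 1 summit of 22 reads. The next were in the region from 195439498 to 195441848, with 315, 245 and 238 reads. The region from 197185126 to 197187300 had 2 of the 10, with 230 and 210 reads, and the 12037 bp region named above had the other 2, with 220 and 211 reads. A pileup of 100 reads or more was listed for 50 summits of 13 regions, and 7 of these regions lay from 195 to 196 Mb. No summit of the stretch reached 1000 reads, which 7 summits elsewhere on chromosome 3 and 244 in the whole list did.

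**Figure D4:**
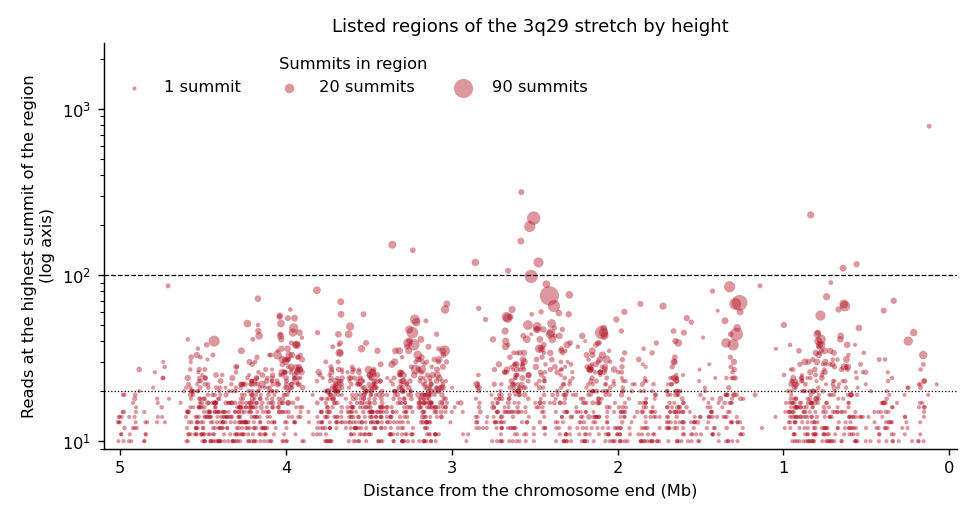
Reads at the highest summit of each of the 2282 regions of the 3q29 stretch (log axis) against the distance of the region from the chromosome end in Mb, with the area of a point growing with its number of summits. The dotted line is at 20 reads and the dashed line at 100 reads, above which 13 regions lie, the highest of them near the chromosome end with 786 reads.

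Other chromosome ends and a second dense part of the same arm place these values. Over the terminal 5 Mb of 41 chromosome ends, counted back from the last listed region on long arms, the 3q end was seventh in summits, with 1223 per Mb against a median of 330 over the ends. Its neighbours in that order were the 7p end with 1493 per Mb and the 20q end with 1095. The share of summits of 20 reads or more was 44.1% in the 3q end (42.8 to 45.3%), 37.8% in the 7p end (36.7 to 38.9%) and 29.4% in the 20q end (28.2 to 30.6%). By this share 3q had rank 5 of the 41 ends, below the 5p end with 49.7% (48.2 to 51.1%) and level within the intervals with the 8q end (45.2%), the 9q end (44.3%) and the 16q end (44.2%). The share at 50 reads or more was 3.45% in the 3q end (3.02 to 3.94%), 0.630% in the 7p end and 0.621% in the 20q end. All 6 ends with more summits than 3q had a smaller share of them at 50 reads or more, the highest being 1.35% in the 16q end. By this share 3q had rank 7 of 41. The ends above it were all less dense. They were 18p (22.5%, 23 summits), 4q (7.24%, 16), 10q (6.01%, 17), 2p (4.17%, 15), 5p (4.02%, 3.50 to 4.61%) and 1p (3.45%). Of these, 5p had 955 and 1p 718 summits per Mb. The intervals of 10q (3.78 to 9.41%), 2p (2.54 to 6.76%), 5p and 1p (2.90 to 4.10%) overlapped that of 3q. Only 18p and 4q stood clear of it. The share of regions with 1 summit was 56.9% in the 3q end, 51.7% in the 7p end and 58.4% in the 20q end. By median region width (284 bp) 3q had rank 9 of the 41 ends, and by summits per region (2.68) rank 10. On the same arm, the part from 183 to 187 Mb had 811 summits per Mb, of which 35.5% (33.9 to 37.2%) had 20 reads or more and 1.23% (0.907 to 1.67%) had 50 or more. The 3q29 stretch was above this whole part in both shares, but the part was uneven. From 184 to 185 Mb it had 1352 summits, of which 45.4% (42.8 to 48.1%) had 20 reads or more, level with the stretch. The other Mb of the part had 37.9%, 21.0% and 19.1%.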

How the data were processed

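ATAC-seq of 4 samples (2 multiH1 knock-down, 2 control) from 75000 cells each gave 1 deposited narrowPeak list. Per the submitters' processing notes, Bowtie 1.1.2 and MACS2 were used, with genome build hg19. Peak calling options, duplicate handling and pooling of replicates were not given in the sources. The deposited fold enrichment is a ratio, (pileup + 1) / (background + 1) at the summit. The deposited p-values and q-values are −log10 values, and the score deposited by the authors, 10 times −log10 p, was not used further.

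Pileup and background were solved from fold and p as a Poisson tail, for all 182 distinct pairs with −log10 p under 300. All gave a background of 2.01 reads. From it and the fold, each summit of the list had a pileup within 0.01 of a whole number. On simulated data (300 pairs with 1 background, 300 with differing ones) the solver recovered 100% of pileups. The only measure of depth is this background. Reads per sample were not analysed here.

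Positions are counted from 1. Named are the 10 densest windows of 100 kb, the 10 summits of highest q, the 5 widest regions and those with most summits, the 5 longest empty stretches and the edges. The stretch, lists and measures were chosen with earlier results of these data known. The centromere gap is the stretch without regions around the centromere, from 90503741 to 93573013. No test was run. Alternatives covered how lines were counted, read minimums, bounds and windows. Computations were made in Python 3.11.15 with scipy 1.17.1, pandas 2.3.3 and numpy 2.4.6.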

Additional observations from a re-analysis of the deposited data

How the results depend on the processing

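None of the 17 alternatives run for the density ratios turned one below 1. Since the stretch was chosen by its number of summits, this lends its density no support. Of all 39 alternatives, those at 50 reads or more, without 195 to 196 Mb and in regions with 1 summit only (5 in all) were chosen after seeing the data. The number of summits, 6107, became 2282 by regions, 2251 with regions within 100 bp merged, 2691 from 20 reads up and 4028 in the 50% of the list with the highest fold, each by construction. In the same order, the ratio to the 3p end (80.0) became 42.1, 41.5, 116 and 106, and the ratio to the rest of chromosome 3 (12.1) became 7.44, 7.42, 23.1 and 17.5. Over the terminal 10 Mb of both ends the first ratio was 14.5, because the sparse and dense parts beyond 5 Mb enter it. From 192 Mb the second was 10.4. The share at 20 reads or more (44.1%) was 36.7% of regions by their highest summit, 16.5% at 30 reads, 46.9% from 194 Mb, 39.4% without 195 to 196 Mb and 12.9% in regions with 1 summit only. By regions, the interval of the stretch (34.8 to 38.7%) overlapped that of the 3p end (14.6 to 36.9%). The share at 50 reads or more (3.44%) was 2.39% without the 13 regions that reach 100 reads and 2.08% without 195 to 196 Mb. Regions with 1 summit (56.9%) were 52.3% at 20 reads or more and 54.6% from 194 Mb. The share in the 10 densest windows (42.5%) was 35.1% by regions, 54.4% from 20 reads up and 49.9% from 194 Mb. Other shifts were within the counting interval or, for the number of summits, within 1.5 times, and causes not named were not tested. No paired analysis was possible because samples have no values of their own in the list, which also means that no replicate could be left out. Regions under 10 reads are not listed, so a sparse window does not show closed chromatin.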
